A study of Homo sapiens with 31 samples.

Results

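Genes of the Krüppel-like factor (KLF) family were followed in PANC-1, an immortal line grown from a human pancreatic carcinoma. The 10 members, KLF2, KLF3, KLF4, KLF5, KLF6, KLF7, KLF9, KLF10, KLF11 and KLF13, were chosen by symbol, from 58037 gene identifiers in the steady-state tables and 43682 genes in the actinomycin D tables, and all 10 passed the filter on low counts in both sets. The study compared cells with a knockout of KHSRP (KO), whose protein binds AU-rich elements and is known to hasten the decay of mRNAs that carry them, with cells named NC whose genotype label is WT. Steady-state RNA-seq held 3 KO and 3 NC libraries. A second set, under actinomycin D, which blocks transcription, held 2 KO and 2 NC libraries at each labelled time of 0, 2, 4, 6 and 8 h. The crosslinking samples of the series were not analysed here. RNA was TRIzol-extracted and libraries were made from polyadenylated RNA, per the labels. The labels name no knockout clone and no separate cultures, so a p-value here reflects the spread among the libraries given, and that spread may be technical.

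KLF proteins bind GC-rich and CACCC-type elements through zinc fingers at their C-terminal end and either activate or repress transcription. KLF2, KLF4, KLF5, KLF6 and KLF7 are known mainly as activators, KLF3 as a repressor that recruits CtBP, and KLF9, KLF10, KLF11 and KLF13 as proteins that recruit the SIN3A corepressor. Many KLF transcripts are short-lived and are induced quickly by growth factors, shear stress or TGF-beta. In pancreatic cells KLF4 and KLF5 are known for roles in ductal differentiation and tumour growth, and KLF10 and KLF11 for TGF-beta responses.

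Promoter sequence is shown as a description of the members, and any part of it in the levels below was not tested. RefSeq windows of 250 bases before a transcription start (GRCh38.p14, not the hg19 build of the deposited tables) were matched by symbol for 8 of the 10 members, in 13 windows. Capitals mark the GC box GGGCGG or its reverse complement CCGCCC, the kind of element KLF and SP proteins are known to bind. KLF2, KLF4 and KLF9 passed the test at steady state, and KLF6 stood farthest above NC in the actinomycin D set.
KLF2, chr19:16324576-16324825, plus strand: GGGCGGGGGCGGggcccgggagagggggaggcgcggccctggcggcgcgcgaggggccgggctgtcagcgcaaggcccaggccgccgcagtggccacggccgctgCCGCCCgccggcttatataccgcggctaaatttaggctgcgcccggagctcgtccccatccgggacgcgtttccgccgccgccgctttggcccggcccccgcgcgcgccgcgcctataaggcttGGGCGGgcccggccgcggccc
KLF4, chr9:107489770-107490019, minus strand: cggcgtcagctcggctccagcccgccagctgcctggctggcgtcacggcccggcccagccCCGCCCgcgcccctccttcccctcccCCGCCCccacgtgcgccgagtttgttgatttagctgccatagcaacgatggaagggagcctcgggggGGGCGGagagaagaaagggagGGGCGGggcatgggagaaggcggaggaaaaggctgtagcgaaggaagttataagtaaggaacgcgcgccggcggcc
KLF6, chr10:3785210-3785459, minus strand: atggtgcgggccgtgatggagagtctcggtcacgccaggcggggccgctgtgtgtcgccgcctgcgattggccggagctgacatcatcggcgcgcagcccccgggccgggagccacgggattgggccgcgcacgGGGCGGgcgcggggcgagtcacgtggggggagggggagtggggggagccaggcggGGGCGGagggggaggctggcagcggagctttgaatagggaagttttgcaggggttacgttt
KLF9, chr9:70414658-70414907, minus strand: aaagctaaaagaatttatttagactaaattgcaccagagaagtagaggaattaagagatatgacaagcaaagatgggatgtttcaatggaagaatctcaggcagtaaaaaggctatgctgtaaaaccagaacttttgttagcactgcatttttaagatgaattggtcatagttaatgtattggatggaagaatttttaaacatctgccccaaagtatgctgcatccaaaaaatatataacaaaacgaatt
The GC box occurred 4 times in the KLF2 window, 4 times in the KLF4 window, 2 times in the KLF6 window and 0 times in the KLF9 window. Over both strands it lay in 8 of the 13 member windows, from 7 genes, against 42.6% of the 35114 windows of the table. CACCC lay in 6 member windows, against 54.7% of all windows, and in none of the 4 shown. TATAAA lay in 1 member window, of KLF5, against 10.7% of all windows. TGACGTCA, a cAMP-response element that reads the same on both strands, lay in 1 window, of KLF11, against 1.65%. The CArG box, bound by serum response factor, lay in 1 window, of KLF7, against 1.16%. Some motifs can overlap, and some genes have several windows that share sequence context.

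Before the members are compared, the labels were checked. KHSRP lay at 9.49 to 10.6 CPM (library-size scaled counts, after TMM) in the 3 steady-state KO libraries and 64.4 to 65.7 CPM in the 3 NC libraries. In the actinomycin D set it lay at 134 to 156 CPM in the 10 KO libraries and 375 to 460 CPM in the 10 NC libraries. CDKN2A, a gene PANC-1 is known to have lost, had 0 counts in each of the 10 actinomycin D KO libraries and 2728 to 5476 counts in the 10 NC libraries, whereas the steady-state libraries had 6 counts in each KO library and 0 in each NC library. In the actinomycin D set the KHSRP label and this second difference between the cells cannot be told apart. Ductal epithelium markers, as CPM before TMM, summed to 6442 to 7647 CPM in steady-state KO and 7075 to 7667 CPM in steady-state NC, and to 4423 to 5842 CPM in actinomycin D KO and 3156 to 4227 CPM in actinomycin D NC. All 5 of them reached 1 CPM in steady-state libraries of both groups and in actinomycin D KO, and 4 of 5 did in actinomycin D NC. Fibroblast markers summed to 29.2 to 67.7 CPM in actinomycin D KO, against 27.8 to 36.5 CPM in actinomycin D NC, with 2 of 5 at 1 CPM in KO, against 3 of 5 in NC. At steady state they summed to 11.6 to 12.9 CPM in KO, against 10.5 to 11.7 CPM in NC. There 3 of 3 tested passed, 2 higher and 1 lower, beside 50.6% of all genes. Immune markers summed to 2.33 to 5.25 CPM in actinomycin D KO, against 0.0872 to 1.16 CPM in actinomycin D NC, with 1 of 5 at 1 CPM in each and PTPRC at 0 in that KO. Endothelial markers summed to 6.67 to 12.9 CPM in actinomycin D KO, against 2.05 to 4.89 CPM in actinomycin D NC, with 1 of 4 at 1 CPM in each. At steady state they summed to 4.51 to 4.84 CPM in KO, against 2.75 to 3.91 CPM in NC. These sums did not overlap, beside 60.0% of single genes whose libraries did not overlap, and 0 of 2 tested passed. Immune markers there summed to 3.83 to 4.56 CPM in KO, against 4.05 to 4.74 CPM in NC, and 0 of 1 tested passed. Of the ductal markers 2 of 5 passed there, 1 higher and 1 lower. At 0 h of the actinomycin D set 5 of 5 ductal markers tested passed between KO and NC, 4 higher and 1 lower. Fibroblast markers passed there for 4 of 4, 2 higher and 2 lower, and immune markers for 1 of 1, higher. Endothelial markers passed for 2 of 3, 1 higher and 1 lower, beside 67.1% of all genes. The part of these markers in the KLF differences was not tested. Insulin and glucagon were at 0 in all libraries. Library totals were 33706181 to 43278138 counts at steady state and 19177934 to 25768060 counts in the actinomycin D set.

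At steady state the number of members called depended on a length adjustment. It was 3 of 10 on the counts as deposited. Adjusted for transcript length it was 8 of 10, 7 higher and 1 lower, beside 52.3% of all genes, 30.4% higher and 21.8% lower. On the counts as deposited 3 members passed the test between KO and NC cells, 2 higher in KO (KLF2 and KLF4) and 1 lower (KLF9), which is a smaller share than the 50.6% of all 17240 tested genes that passed, 24.4% higher and 26.3% lower. The median log2 change of the 10 members was 0.12, beside 0.02 over all tested genes. In these bulk libraries fewer cells of a type and less RNA per cell cannot be told apart. Levels below are CPM after TMM scaling unless stated, and calls come from edgeR's quasi-likelihood test, Benjamini-Hochberg adjusted over all genes at 0.05.

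**Figure D1:**
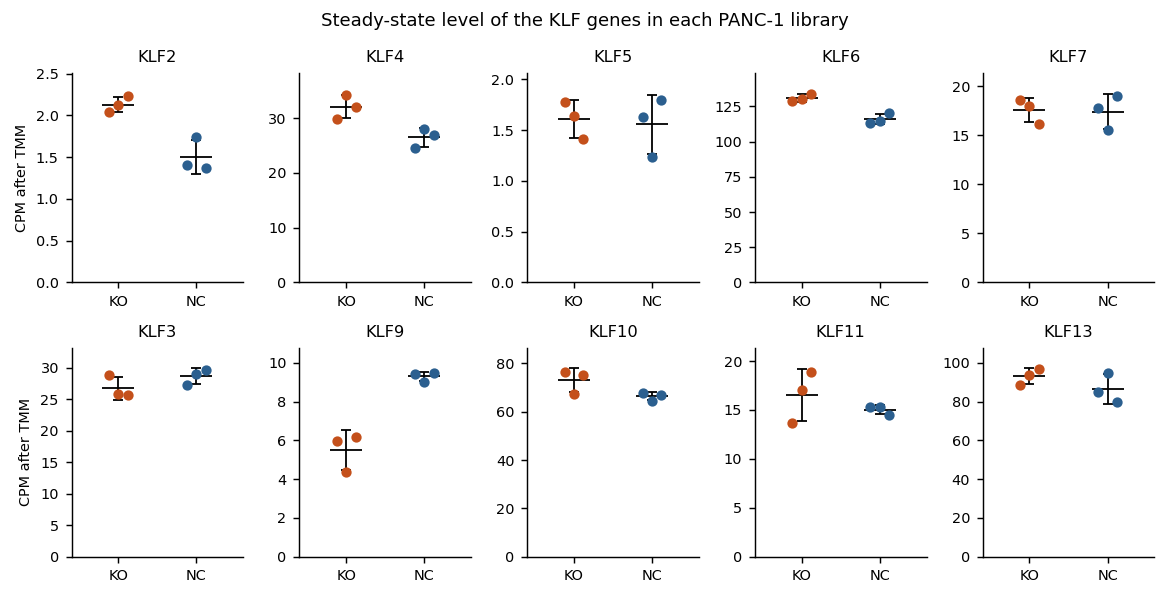
Steady-state level (CPM after TMM scaling, y axis from 0) of each KLF gene in the 3 KO and 3 NC libraries, with 1 point per library, a horizontal line at the mean and bars of 1 SD. KO libraries of KLF9 sit between 4.35 and 6.20 CPM, all below the NC libraries at 9.02 to 9.46 CPM.

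KLF9, a repressor known as a target of glucocorticoid and thyroid hormone receptors, had the largest change of the members on the counts as deposited. Adjusted for transcript length it stood at -0.35, smaller in size than KLF13 (0.56), KLF2 (0.54), KLF7 (0.43), KLF11 (0.43), KLF6 (0.40) and KLF4 (0.36). It had 5.97, 4.35 and 6.20 CPM in the KO libraries, against 9.43, 9.02 and 9.46 CPM in the NC libraries. Every KO library lay below every NC library, and the log2 change was -0.76 (SE 0.14, adjusted p = 0.00152). KLF9 is encoded on hg19 chromosome 9 from 72999513 to 73029573 on the minus strand (ENSG00000119138.4).

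KLF4, a reprogramming factor and regulator of epithelial differentiation (hg19 chromosome 9, 110247133 to 110252050, minus strand, ENSG00000136826.14), had 29.9, 34.2 and 32.1 CPM in KO, against 24.5, 28.0 and 26.9 CPM in NC. The groups did not overlap, and the log2 change was 0.28 (SE 0.09, adjusted p = 0.0247). KLF2, known for quiescence of endothelium and T cells (hg19 chromosome 19, 16435637 to 16439496, plus strand, ENSG00000127528.5), had 2.04, 2.12 and 2.23 CPM in KO, against 1.40, 1.74 and 1.37 CPM in NC. Its KO libraries held 71, 87 and 97 counts and its NC libraries 48, 73 and 53, and its log2 change was 0.50 (SE 0.17, adjusted p = 0.0324). Both the KLF2 and the KLF4 call were lost when KO replicate 2, KO replicate 3, NC replicate 1 or NC replicate 3 was left out, with adjusted p of 0.0666 to 0.12 over both genes, and KLF9 was then the 1 member left. KLF2 also did not pass with DESeq2 (adjusted p = 0.0663) or with no filter on low counts (adjusted p = 0.0637). Without KO replicate 1, 5 members passed: these 3 with KLF6 (0.20, adjusted p = 0.0119) and KLF11 (0.27, adjusted p = 0.0171).

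The other 7 members did not pass. KLF6, known as a tumour suppressor and injury-response factor (hg19 chromosome 10, 3818188 to 3827401, minus strand, ENSG00000067082.14), had 129, 130 and 134 CPM in KO, against 113, 115 and 120 CPM in NC. Its groups did not overlap, but the log2 change of 0.17 (SE 0.07) had an adjusted p of 0.0623. The groups did not overlap for 4 members, KLF2, KLF4, KLF6 and KLF9, beside 60.0% of all genes. KLF10, also named TIEG1 for its induction by TGF-beta, averaged 73.1 ± 4.86 CPM in KO cells, against 66.3 ± 1.73 CPM in NC cells (SD over n = 3 libraries in each), and its relative KLF11 averaged 16.5 ± 2.65 CPM in KO, against 15.0 ± 0.464 CPM in NC. KLF13, first described as a late regulator of chemokine expression in T cells, averaged 93.2 ± 4.04 CPM in KO, against 86.6 ± 7.56 CPM in NC. KLF11 lies on hg19 chromosome 2 from 10183677 to 10194963 (plus strand), KLF13 on chromosome 15 from 31619038 to 31727868 (plus strand) and KLF10 on chromosome 8. The log2 changes of these 3, KLF10, KLF11 and KLF13, were 0.14, 0.14 and 0.11, with SE of 0.08, 0.12 and 0.09. KLF3 averaged 26.7 ± 1.84 CPM in KO, against 28.6 ± 1.27 CPM in NC, a log2 change of -0.10 (SE 0.08). KLF7, known for axon growth in neurons, averaged 17.6 ± 1.25 CPM in KO, against 17.5 ± 1.77 CPM in NC, with a log2 change of 0.01 (SE 0.10). KLF3 lies on chromosome 4 from 38665820 to 38703138 (plus strand) and KLF7 on chromosome 2 from 207938861 to 208031970 (minus strand). KLF5, a driver of proliferation in gut epithelium (chromosome 13, 73629114 to 73651676, plus strand), was low, at 1.61 ± 0.188 CPM in KO, against 1.56 ± 0.289 CPM in NC, with a log2 change of 0.04 (SE 0.20). Adjusted for a trend of the change with transcript length, 8 members passed, 7 higher and 1 lower, beside 52.3% of all genes: the calls gained were KLF6, KLF7, KLF10 (0.31), KLF11 and KLF13, and KLF3 stood at 0.16. This adjustment put the median of all genes at 0.10.

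Per transcript length the order of the members was nearly the same in both cell groups. In KO cells KLF6 led at 16.9 ± 1.40 TPM (transcript share per length, the deposited values), ahead of KLF10 at 10.1 ± 1.49, KLF13 at 7.21 ± 0.720, KLF4 at 5.37 ± 0.0603 and KLF3 at 3.28 ± 0.310 TPM. KLF11 (1.75 ± 0.206 TPM) and KLF7 (1.64 ± 0.147 TPM) followed and overlapped in their KO libraries, as did KLF2 (0.473 ± 0.0379 TPM) and KLF9 (0.447 ± 0.110 TPM), with KLF5 last at 0.203 ± 0.0321 TPM (SD, n = 3 each). In NC cells KLF6 stood at 12.3 ± 0.993, KLF10 at 7.70 ± 0.127, KLF13 at 5.34 ± 0.425, KLF4 at 3.80 ± 0.368, KLF3 at 2.65 ± 0.295, KLF11 at 1.37 ± 0.0551, KLF7 at 1.04 ± 0.221, KLF9 at 0.633 ± 0.0153, KLF2 at 0.283 ± 0.0493 and KLF5 at 0.167 ± 0.0351 TPM. The mean TPM was higher in KO for 9 of the 10 members, all but KLF9. Among these 9 were KLF3 and KLF7, whose log2 changes on CPM were -0.10 and 0.01. The share of all genes with a higher mean TPM in KO was not counted, so this count was not tested. No neighbours in that NC order overlapped, and the one change of order was that KLF9 lay above KLF2 in NC.

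In the actinomycin D set the cell groups differed far more. At the labelled 0 h 8 of the 10 members passed the test between KO and NC, 2 higher (KLF6 and KLF10) and 6 lower (KLF2, KLF4, KLF5, KLF9, KLF11 and KLF13), beside 67.1% of all 17715 tested genes, 35.5% higher and 31.6% lower. The median log2 change of the members was -0.86, beside 0.06 over all genes. This split moved with the scaling. With counts scaled to ribosomal protein genes 9 members passed, 3 higher and 6 lower, beside 69.6% of all genes, 49.7% higher and 19.9% lower. On the deposited molecule signal 8 passed, 4 higher and 4 lower, beside 71.7% of all genes, 58.0% higher and 13.7% lower. The median of all genes was 0.50 and 0.83, in that order.

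KLF6 showed the largest rise. Its 0 h libraries had 48.7 and 57.0 CPM in KO, against 4.93 and 6.90 CPM in NC, an 8.94-fold difference (log2 change 3.16, SE 0.13, adjusted p = 1.4e-24). KLF10 had 12.8 and 11.5 CPM in KO, against 8.56 and 6.99 CPM in NC (log2 change 0.65, SE 0.16, adjusted p = 0.000581). On the molecule signal the log2 changes of KLF6 and KLF10 were 4.21 and 1.51.

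The members that were lower in KO at 0 h included activators and repressors alike. KLF4 had 3.82 and 2.85 CPM in KO, against 11.6 and 10.9 CPM in NC (log2 change -1.75, SE 0.17, adjusted p = 4.88e-12). KLF5 had 0.954 and 1.61 CPM in KO, against 7.49 and 7.04 CPM in NC (-2.51, SE 0.25, adjusted p = 6.49e-12). KLF9 had 1.34 and 1.13 CPM in KO, against 7.49 and 7.09 CPM in NC (-2.55, SE 0.27, adjusted p = 5.96e-11). KLF4 stood at 0.298 of its NC level, KLF5 at 0.175 and KLF9 at 0.170. KLF2 had 0.286 and 0.215 CPM in KO, from 6 and 4 counts, against 0.986 and 2.44 CPM in NC, from 22 and 52 counts (-2.73, SE 0.56, adjusted p = 3.92e-05). KLF11 averaged 3.72 ± 1.01 CPM in KO cells, against 7.47 ± 1.74 CPM in NC cells (SD over n = 2 libraries in each), with a log2 change of -1.0 (SE 0.24, adjusted p = 0.000444). KLF13 had 61.9 and 62.0 CPM in KO, against 101 and 104 CPM in NC (-0.72, SE 0.07, adjusted p = 6.15e-13). On the molecule signal KLF13 stood at 0.08, the other direction, and KLF11 at -0.29 (adjusted p = 0.454). KLF3 (-0.13, SE 0.16, adjusted p = 0.482) and KLF7 (0.21, SE 0.13, adjusted p = 0.147) did not pass, and on the molecule signal they stood at 0.67 and 1.03.

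KLF2 and KLF4 were thus higher in KO at steady state and lower in KO at 0 h of the actinomycin D set. The sets have different tables and were normalised apart, so this contrast between them was not tested. Their NC libraries also differed in CDKN2A, with 0 counts in each at steady state and 2728 to 5476 in the actinomycin D set. KLF9 was lower in KO in both sets.

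**Figure D2:**
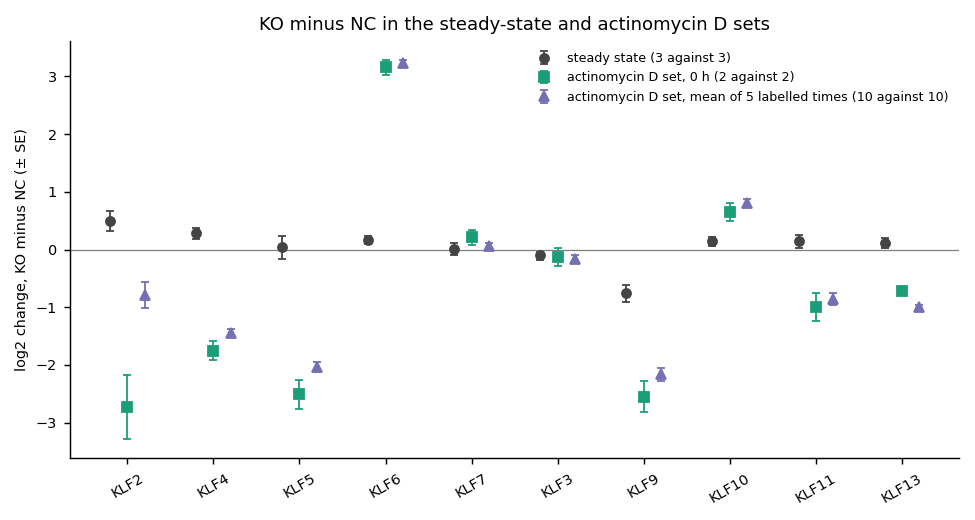
Log2 change of each KLF gene, KO minus NC (y axis, bars of 1 SE), in the steady-state set (3 against 3 libraries), at 0 h of the actinomycin D set (2 against 2) and over the mean of the 5 labelled times (10 against 10), on the count scale after TMM. KLF6 stands at 3.16 and 3.23 in the actinomycin D set and at 0.17 at steady state.

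Averaged over the 5 labelled times, 9 of the 10 members differed between KO and NC, 2 higher and 7 lower, beside 83.1% of all genes, 41.6% in each direction. KLF6 lay at 48.7 to 192 CPM over the 10 KO libraries, against 4.93 to 29.7 CPM over the 10 NC libraries (log2 change 3.23, SE 0.05, adjusted p = 1.99e-39), and KLF13 at 42.3 to 89.4 CPM in KO, against 94.3 to 167 CPM in NC (-0.99, SE 0.03, adjusted p = 4.67e-30). For these 2 members no KO library overlapped any NC library, beside 38.2% of all genes. KLF10 was higher by 0.81 (SE 0.07), and KLF4, KLF5, KLF9 and KLF11 were lower by 1.45, 2.03, 2.16 and 0.86 on the log2 scale. KLF2 was lower, at -0.79 (SE 0.23, adjusted p = 0.00183), and KLF3 slightly lower, at -0.17 (SE 0.07, adjusted p = 0.0189). KLF7 did not pass, at 0.06 (SE 0.06, adjusted p = 0.346). Scaled to ribosomal protein genes the split was 4 higher and 5 lower, beside 54.9% of all genes higher and 28.8% lower. On the molecule signal it was 3 higher and 6 lower, beside 53.8% of all genes higher and 28.0% lower. KLF3 stood at 0.22 under both. KLF2 no longer passed when scaled to ribosomal protein genes (-0.40, adjusted p = 0.0975), and KLF3 did not with no filter on low counts (-0.13, adjusted p = 0.0793). Without the libraries labelled NC 4 h and KO 6 h, which stand apart below, 8 members differed, beside 82.5% of all genes, and KLF2 no longer passed (-0.62, adjusted p = 0.0976). The KLF3 call was also lost when any of 5 libraries was left out, KO 0 h replicate 1, KO 2 h replicate 1, KO 4 h replicate 1, KO 8 h replicate 2 or NC 0 h replicate 1 (adjusted p 0.0566 to 0.07).

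The times below are the labelled ones. Whether the time and treatment labels match the libraries was not tested. Over the labelled times the members did not decline steadily. In the libraries labelled KO all 10 peaked at 6 h, and in the libraries labelled NC all 10 peaked at 4 h. Both libraries of that time lay above the other 8 libraries of the genotype for every member, beside 18.9% of all genes at KO 6 h and 25.0% at NC 4 h. The F test among the 5 labelled times passed for 10 of 10 members in KO, beside 55.9% of all genes, and for 10 of 10 in NC, beside 54.7%. The test of a difference between the 2 time profiles passed for 10 of 10, beside 55.3%.

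**Figure D3:**
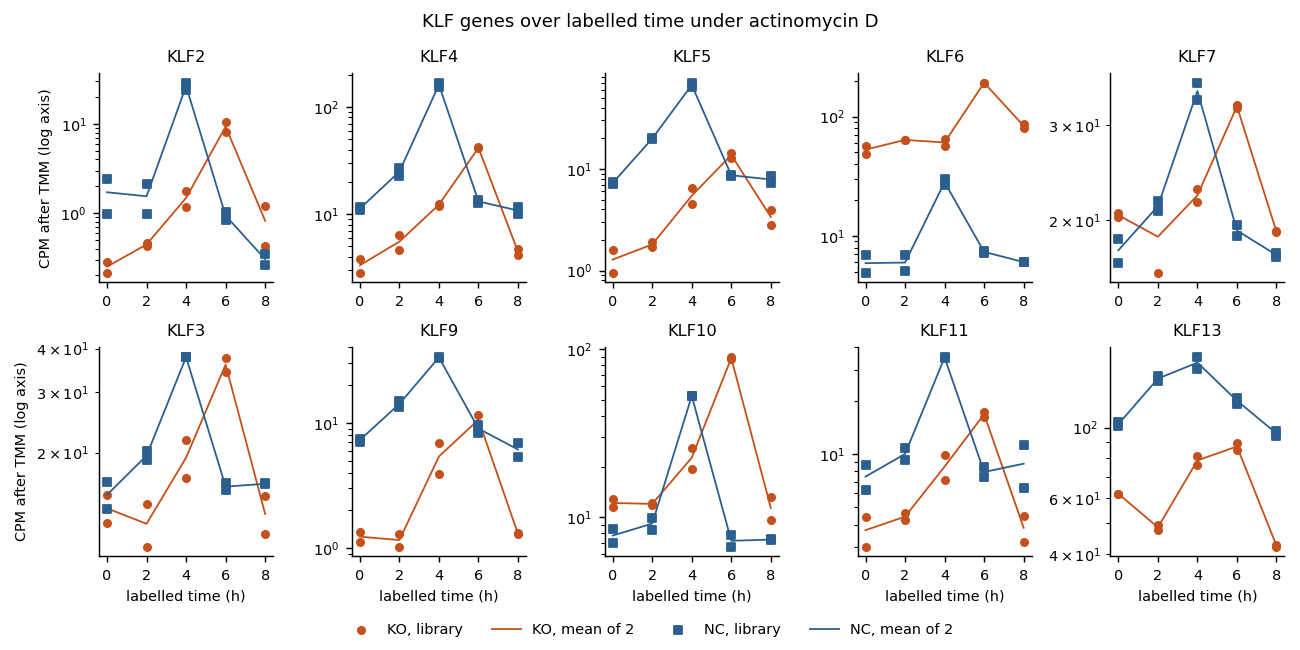
CPM after TMM scaling (log y axis) of each KLF gene against the labelled time in hours, with 1 point per library (KO circles, NC squares) and lines through the means of 2. Every gene peaks at 6 h in KO and at 4 h in NC, and the KLF4 peaks lie at 41.1 and 42.0 CPM in KO and at 154 and 168 CPM in NC.

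KLF4 shows the shape of the pattern. In KO it had 3.82 and 2.85 CPM at 0 h, 4.65 and 6.44 at 2 h, 12.5 and 12 at 4 h, 41.1 and 42.0 at 6 h and 4.18 and 4.75 CPM at 8 h. In NC it had 11.6 and 10.9 CPM at 0 h, 22.8 and 27.0 at 2 h, 154 and 168 at 4 h, 12.8 and 13.5 at 6 h and 10 and 11.6 CPM at 8 h. The level climbed up to the peak label and was back near its 0 h level at 8 h in both. The rise over 0 h was 3.63 on the log2 scale at KO 6 h (SE 0.15, adjusted p = 1.99e-22) and 3.84 at NC 4 h (SE 0.13, adjusted p = 8.24e-26).

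KLF2 had the largest rise at KO 6 h, while at NC 4 h its rise and that of KLF4 lay within their errors. In KO it had 0.286 and 0.215 CPM at 0 h, 0.460 and 0.430 at 2 h, 1.79 and 1.17 at 4 h, 10.6 and 8.05 at 6 h and 0.429 and 1.21 CPM at 8 h. In NC it had 0.986 and 2.44 CPM at 0 h, 2.12 and 0.969 at 2 h, 29.0 and 24.2 at 4 h, 0.841 and 1.03 at 6 h and 0.345 and 0.264 CPM at 8 h. Its peak libraries held 271 and 218 counts at KO 6 h and 616 and 585 counts at NC 4 h, against 6 and 4 counts at KO 0 h and 22 and 52 counts at NC 0 h. The rise over 0 h was 5.18 (SE 0.47, adjusted p = 2.19e-12) at KO 6 h and 3.96 (SE 0.35, adjusted p = 7.62e-13) at NC 4 h. Without NC 0 h replicate 1 the NC 4 h rise of KLF2 was 3.44 and that of KLF4 3.88, and without NC 0 h replicate 2 that of KLF2 was 4.74.

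KLF6 was higher in KO than in NC at every labelled time, by an amount that varied. In KO it had 48.7 and 57.0 CPM at 0 h, 63.5 and 64.0 at 2 h, 64.4 and 56.9 at 4 h, 192 and 192 at 6 h and 80.0 and 86.9 CPM at 8 h. In NC it had 4.93 and 6.90 CPM at 0 h, 5.08 and 6.89 at 2 h, 26.7 and 29.7 at 4 h, 7.26 and 7.44 at 6 h and 6.08 and 6.01 CPM at 8 h. Its means were 60.7 CPM in KO, against 28.2 CPM in NC, at 4 h, and 192 CPM in KO, against 7.35 CPM in NC, at 6 h, and its highest NC library lay below its lowest KO library. Unlike KLF4 and KLF2, KLF6 did not pass at KO 4 h against 0 h (0.20, adjusted p = 0.129). It did pass there with no filter on low counts (0.26, adjusted p = 0.022), scaled to ribosomal protein genes (0.55, adjusted p = 4.13e-06) and without KO 0 h replicate 2 (0.32, adjusted p = 0.0489), and stood at -0.18 on the molecule signal. Its second-highest KO time was 8 h.

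KLF10 had 12.8 and 11.5 CPM at 0 h, 12.2 and 11.8 at 2 h, 25.9 and 19.3 at 4 h, 90.2 and 86.8 at 6 h and 9.60 and 13.1 CPM at 8 h in KO. In NC it had 8.56 and 6.99 CPM at 0 h, 8.42 and 9.91 at 2 h, 52.8 and 52.5 at 4 h, 7.79 and 6.69 at 6 h and 7.33 and 7.38 CPM at 8 h. Outside the peak labels its NC libraries stayed between 6.69 and 9.91 CPM. Its rise was 2.86 (SE 0.14) at KO 6 h and 2.76 (SE 0.15) at NC 4 h.

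KLF5 and KLF9 rose in steps. KLF5 averaged 1.28, 1.80, 5.45, 13.7 and 3.36 CPM at 0, 2, 4, 6 and 8 h in KO, and 7.26, 19.9, 67.0, 8.66 and 7.87 CPM in NC (n = 2 each). KLF9 averaged 1.23, 1.16, 5.39, 10.6 and 1.30 CPM in KO and 7.29, 14.1, 33.3, 8.99 and 6.13 CPM in NC. Both were already above 0 h at the label before the peak, by 2.10 (SE 0.25) for KLF5 and 2.11 (SE 0.28) for KLF9 at KO 4 h, and by 1.45 (SE 0.18) and 0.96 (SE 0.20) at NC 2 h. KLF11 averaged 3.72, 4.44, 8.50, 16.8 and 3.84 CPM in KO and 7.47 CPM at 0 h, 9.25 and 10.8 CPM in the libraries of 2 h, and 35.1, 7.93 and 8.82 CPM at 4, 6 and 8 h in NC. Over these 3 genes the largest SD of a mean was 2.14 CPM in KO (KLF9 at 4 h) and 4.95 CPM in NC (KLF5 at 4 h).

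The smallest rises were those of KLF3, KLF7 and KLF13. KLF3 averaged 13.8, 12.5, 19.3, 36.0 and 13.3 CPM in KO and 15.1, 19.6, 37.8, 16 and 16.2 CPM in NC, so its peaks were 2.60-fold and 2.50-fold over 0 h. KLF7 averaged 20.4, 18.6, 22.3, 32.6 and 19.1 CPM in KO and 17.6, 21.3, 34.7, 19.2 and 17.2 CPM in NC, 1.59-fold and 1.97-fold over 0 h. The largest SD of a mean of either gene was 3.71 CPM in KO (KLF7 at 2 h) and 2.04 CPM in NC (KLF3 at 0 h). KLF13 had the smallest rise over 0 h at both peak labels. It had 61.9 and 62.0 CPM at 0 h, 47.7 and 49.5 at 2 h, 81.3 and 76.4 at 4 h, 85.1 and 89.4 at 6 h and 42.8 and 42.3 CPM at 8 h in KO, and 101 and 104, 140 and 145, 167 and 153, 119 and 124 and 94.3 and 97.4 CPM at those times in NC. Its KO level at the peak label was 1.11-fold its level at 4 h, and its NC level at the peak label 1.12-fold that at 2 h, while KLF2 stood 6.30-fold and 15.5-fold over its second-highest time. Over all 5 times in KO the range of KLF13 was wider, with a highest over lowest mean of 2.05 for KLF13 and 1.75 for KLF7.

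Each later time was also set against 0 h. These comparisons share the 0 h libraries within a genotype, so their calls are not independent. At KO 2 h 2 members passed, beside 9.16% of all genes, 4.87% higher and 4.29% lower: KLF4 higher (0.73, SE 0.19, adjusted p = 0.00796) and KLF13 lower (-0.35, SE 0.07, adjusted p = 0.000545). The KLF4 call was lost without KO 0 h replicate 2 (0.55, adjusted p = 0.166) or KO 2 h replicate 2 (0.47, adjusted p = 0.272). At KO 4 h 8 members rose and 0 fell, beside 27.7% of all genes (12% of all genes higher), with KLF6 and KLF7 the 2 that did not pass. The KLF3 call there (0.49, adjusted p = 0.0144) was lost without KO 0 h replicate 1 (0.36, adjusted p = 0.208) or KO 4 h replicate 2 (0.29, adjusted p = 0.319). At KO 6 h all 10 rose, beside 47.7% of all genes (19.7% of all genes higher), and the median of the members was 2.51 beside -0.09 over all genes. The 10 log2 changes lay between 0.49 (KLF13, SE 0.07, adjusted p = 2.26e-08) and 5.18 (KLF2). At KO 8 h 4 passed, beside 22.1% of all genes: KLF5 (1.41, SE 0.28), KLF6 (0.66, SE 0.10) and KLF2 (1.69, SE 0.63) higher and KLF13 (-0.54, SE 0.07) lower. The KLF2 call at KO 8 h, with an adjusted p of 0.0498, was lost when any of 13 libraries was left out, and it stood at 0.75 (adjusted p = 0.665) without KO 8 h replicate 2.

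In NC, 4 members rose and 0 fell at 2 h, beside 31.8% of all genes called, 16.9% higher and 14.9% lower. The 4 were KLF4 (1.15, SE 0.13), KLF5 (1.45, SE 0.18), KLF9 (0.96, SE 0.20) and KLF13 (0.48, SE 0.06). At NC 4 h all 10 rose, beside 51.5% of all genes (27.1% of all genes higher), between 0.65 (KLF13, SE 0.06, adjusted p = 7.57e-12) and 3.96 (KLF2), with a median of 2.25 beside 0.00 over all genes. At NC 6 h 1 member passed, beside 4.42% of all genes, 3.12% higher: KLF13 at 0.25 (SE 0.06, adjusted p = 0.0141), a call lost without either NC 0 h or either NC 6 h library (adjusted p 0.0537 to 0.158). At NC 8 h 1 passed, beside 3.21% of all genes: KLF2, lower at -2.45 (SE 0.53, adjusted p = 0.00459), from 8 and 5 counts at 8 h against 22 and 52 counts at 0 h. That call was lost without NC 0 h replicate 2 (-1.66, adjusted p = 0.24) or NC 8 h replicate 2 (-2.28, adjusted p = 0.0895).

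Per transcript length the order of the members was not that of the steady state, and the peak labels changed it. At 0 h in KO, KLF6 led at 5.15 ± 0.598 RPKM (reads scaled to gene length and library size, the deposited values), with KLF13 at 3.88 ± 0.0212 and KLF10 at 1.71 ± 0.114 RPKM. At 0 h in NC, KLF13 led at 6.33 ± 0.114 RPKM, with KLF4 at 1.64 ± 0.0778 RPKM, and KLF6 was ninth of the 10 at 0.570 ± 0.133 RPKM, overlapping KLF9 at 0.619 ± 0.0253 RPKM. KLF2 was last in both, at 0.0397 ± 0.00781 RPKM in KO and 0.268 ± 0.161 RPKM in NC. At KO 6 h the leaders were KLF6 (21.3 ± 0.0735 RPKM), KLF10 (14.1 ± 0.411 RPKM) and KLF4 (6.96 ± 0.0982 RPKM), and KLF11, KLF5, KLF7 and KLF2 lay so close, at 1.98 to 1.68 RPKM, that each overlapped its neighbour. At NC 4 h KLF4 led at 24.8 ± 1.48 RPKM, ahead of KLF13 at 10.5 ± 0.689, KLF5 at 8.88 ± 0.706 and KLF10 at 7.72 ± 0.0710 RPKM (SD, n = 2 each), with KLF7 last at 1.88 ± 0.107 RPKM.

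With the libraries labelled NC 4 h and KO 6 h left out, the F test among the remaining times passed for 9 members in KO, beside 41.8% of all genes, and for 5 in NC (KLF2, KLF4, KLF5, KLF9 and KLF13), beside 39.3%. The difference between the profiles then passed for 4 members, KLF2, KLF5, KLF9 and KLF13, beside 33.8% of all genes. KLF7 was the 1 member that did not pass in KO (adjusted p = 0.132), and KLF3, KLF6, KLF7, KLF10 and KLF11 were those that did not pass in NC (adjusted p 0.293 to 0.591).

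The number of genes with a steady slope over labelled hours depended on the scale. On CPM it passed for 0 of 10 members in KO, in NC and as a difference between them, and for 0 of 17715 genes. On the deposited molecule signal it passed for 9284 genes in KO (52.4%) and 7714 in NC (43.5%), nearly all with a lower level at later times, and for 0 genes as a difference. No member was among them, with adjusted p of 0.095 to 0.981 in KO and 0.0948 to 0.553 in NC. On that signal 10 of 10 NC slopes and 6 of 10 KO slopes of the members were below 0. The median slope of all genes was also below 0 there, at -0.14 in NC and -0.16 in KO. On CPM an unadjusted p under 0.05 was reached by 635 genes in KO, 403 in NC and 529 for the difference, with KLF5 in KO (0.37, unadjusted p = 0.0361) the 1 member among them, and DESeq2 called 10, 2 and 6 genes, none of them a member. The members' KO slopes on CPM ran from 0.00 (KLF13, SE 0.04) to 0.61 (KLF2, SE 0.30) log2 units per hour and their NC slopes from -0.21 (KLF2, SE 0.48) to 0.02 (KLF6, SE 0.12).

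CPM gives a share of each library. The deposited tables also hold a molecule signal, whose sum fell to 26.0% and 27.0% of the 0 h mean in the KO libraries of 8 h and to 42.2% and 40.2% in the NC libraries of 8 h. On this scale the median gene changed by -0.68, -0.43, -0.47 and -1.68 at 2, 4, 6 and 8 h in KO and by 0.12, 0.28, -0.44 and -1.10 in NC, as log2 values against 0 h. All 10 members still peaked at KO 6 h and NC 4 h, with both libraries above the other 8. At KO 6 h 8 of the 10 passed, beside 52.4% of all genes, 11.1% higher and 41.3% lower. KLF7 (0.31, adjusted p = 0.282) and KLF13 (0.11, adjusted p = 0.347) did not pass there. At NC 4 h all 10 passed, beside 40.9% of all genes, 34.0% higher and 6.89% lower. The molecule log2 change of KLF4 was 3.53 at KO 6 h and 4.42 at NC 4 h, and that of KLF2 4.68 at KO 6 h and 4.54 at NC 4 h. At 8 h the members fell with the rest: 8 fell and 0 rose in KO, beside 79.8% of all genes lower, and 10 fell and 0 rose in NC, beside 67.7%. At 2 h in KO 4 fell and 0 rose, beside 58.6% of all genes lower, and at 4 h in KO 4 rose and 0 fell, beside 3.39% higher.

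**Figure D4:**
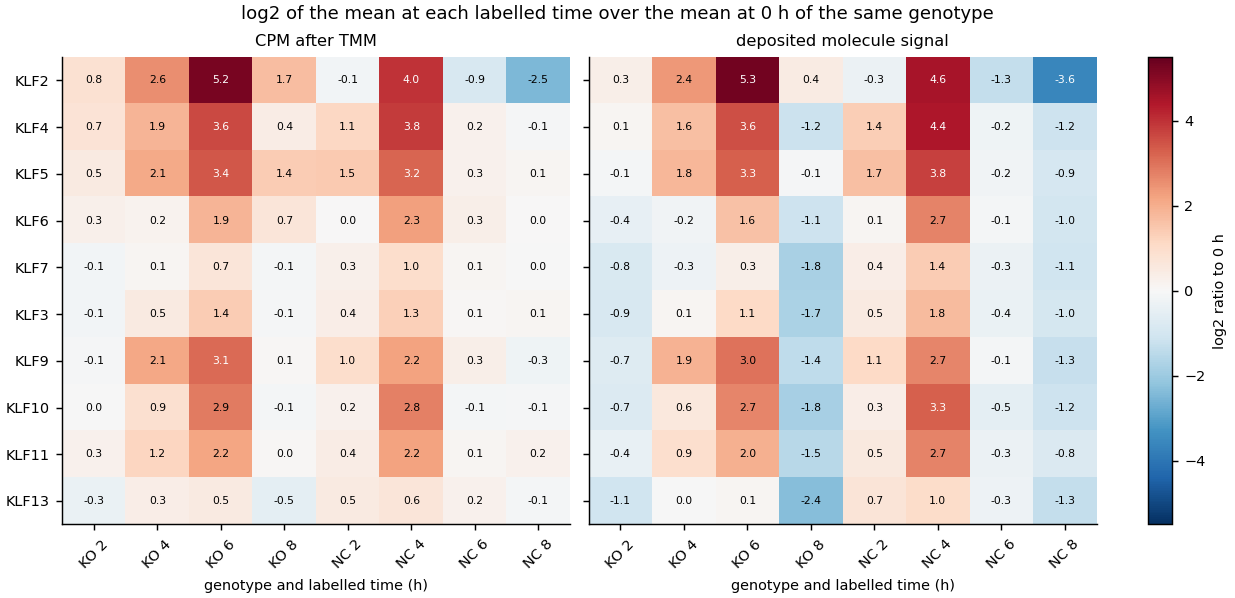
Log2 of each KLF gene's mean at a labelled time over its mean at 0 h of the same genotype (colour and printed value), on CPM after TMM (left panel) and on the deposited molecule signal (right panel), with KO columns left of NC columns. The KO 6 h and NC 4 h columns are the highest of their genotype for every gene on both scales, and the 8 h columns are lower on the molecule signal.

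The members' profiles were alike once each was centred within its genotype. Over the 10 group means, the 45 pairs of members had Pearson r of 0.54 (KLF6 with KLF13) to 0.99, with a median of 0.94. These points share their libraries, so the values are a description. Among 9742 other genes with a mean of at least 10 CPM, the profile most like that of KLF4 was FEM1B (r = 0.995), with TFAP2C (0.995) and SLC38A2 (0.994) next, and SLC38A2 and TFAP2C were also among the nearest 3 to KLF5, behind CHD7 (0.983). HIVEP1, a zinc finger gene, was nearest to KLF10 (0.995) and was among the 3 nearest to KLF3 (0.995), behind TFAP2A (0.997) and CITED2 (0.996). KLF9 was nearest to TOB1 (0.997), KLF11 to SOX4 (0.993), KLF7 to E2F8 (0.995), KLF13 to CARMIL1 (0.998), KLF2 to DYRK1A (0.989) and KLF6 to MYNN (0.986).

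The wider family and its circle were read from lists chosen with earlier results of these data known. Among 16 other KLF and SP genes, 10 were tested at steady state and 6 passed, 3 higher and 3 lower, beside 50.6% of all genes. KLF12, a repressor related to KLF3, fell to 3.44 ± 0.481 CPM in KO, against 9.57 ± 0.747 CPM in NC (log2 change -1.48, SE 0.13, adjusted p = 3.99e-05), and SP3 and SP4 were lower by 0.51 and 0.44 on the log2 scale. KLF15 (1.04, SE 0.26), KLF16 (0.48, SE 0.10) and SP6 (0.39, SE 0.13) were higher. At 0 h of the actinomycin D set 6 of 11 tested genes passed, 5 higher and 1 lower, beside 67.1% of all genes: SP4 (1.37), KLF16 (0.51), SP1 (0.46), SP3 (0.22) and SP6 (1.88) were higher, and KLF17, at 0.0537 ± 0.0759 CPM in KO, against 3.28 ± 1.34 CPM in NC, was lower. At the peak labels 6 of 11 rose at KO 6 h, beside 19.7% of all genes higher, and 9 of 11 at NC 4 h, beside 27.1%, with 0 lower. Those at NC 4 h included genes of very low level. SP5 had 0.466 ± 0.393 CPM, against 0 at 0 h, and KLF14 0.580 ± 0.178 CPM, against 0.0448 ± 0.0634 CPM. SP9 had 1.36 ± 0.591 CPM, against 0.179 ± 0.254 CPM. Whether such genes passed the filter on low counts only through the NC 4 h libraries was not checked. SP1, the founding GC-box factor, stood at 148 ± 3.11 CPM at KO 6 h, against 89.5 ± 1.02 CPM at 0 h, and at 187 ± 4.32 CPM at NC 4 h, against 65.0 ± 2.37 CPM at 0 h.

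Of 21 genes known as regulators or partners of KLF proteins, 15 passed at steady state, 4 higher and 11 lower, with a median of -0.35, beside 50.6% of all genes called (24.4% higher and 26.3% lower) and a median of 0.02. The 3 with the largest change were lower in KO: WWP1, a ubiquitin ligase for KLF2 and KLF5 (-0.93, SE 0.19), KRIT1, a cerebral cavernous malformation gene upstream of KLF2 and KLF4 in endothelium (-0.86, SE 0.15), and MEF2A, a factor that activates KLF2 and KLF4 (-0.78, SE 0.13). At 0 h 14 passed, 9 higher and 5 lower, beside 67.1% of all genes, led by MEF2C (3.86, SE 0.37) and CCM2 (1.51, SE 0.09), both higher, and MEF2A (-1.25, SE 0.09). At KO 6 h 11 rose and 6 fell, beside 19.7% of all genes higher and 28.0% lower, and SIN3A, the corepressor of KLF9, KLF10, KLF11 and KLF13, reached 106 ± 2.43 CPM, against 13.8 ± 1.03 CPM at 0 h, with SIAH1 (2.19) and MAPK7, the kinase ERK5 upstream of MEF2 (1.63), next. At NC 4 h 12 rose and 4 fell, beside 27.1% of all genes higher and 24.4% lower, and SIN3A reached 75.2 ± 2.87 CPM, against 17 ± 2.72 CPM at 0 h, followed by the acetyltransferase genes CREBBP (1.99, SE 0.09) and EP300 (1.95, SE 0.10).

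Among genes known as KLF targets, 12 of 23 passed at steady state, 9 higher and 3 lower, a share near the 50.6% of all genes. TGFBR1, a receptor for TGF-beta that KLF6 is known to activate, fell to 14.9 ± 0.928 CPM in KO, against 72.1 ± 2.40 CPM in NC (-2.28, SE 0.08, adjusted p = 1.33e-06). SMAD2 was lower (-0.95, SE 0.10) and BIRC5, the survivin gene, higher (0.77, SE 0.07). At 0 h 8 of 24 were higher and 12 lower, beside 35.5% of all genes higher and 31.6% lower. PLAU, the urokinase gene KLF6 is known to act on, stood at 681 ± 0.366 CPM in KO, against 1.18 ± 1.0 CPM in NC. MAOB, a known target of KLF11, stood at 0 CPM in KO, against 63.4 ± 2.61 CPM in NC. NOS3, a known target of KLF2, stood at 3.61 ± 1.23 CPM in KO, against 0 CPM in NC. These cell groups also differ in CDKN2A, and the KHSRP label cannot be told apart from that difference. The part of any KLF gene in these levels was not tested. At KO 6 h 10 targets rose and 8 fell, beside 19.7% of all genes higher and 28.0% lower, among them DDIT4 (4.94, SE 0.21) and SMAD7 (2.72, SE 0.25) higher, and FGFBP1 lower, at 0.0739 ± 0.104 CPM, against 0.608 ± 0.557 CPM at 0 h. At NC 4 h 14 rose and 7 fell, beside 27.1% of all genes higher and 24.4% lower, with DDIT4 (3.32, SE 0.16) and SMAD7 (2.87, SE 0.23) again among the largest.

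Other early-response genes, which like several KLF genes are known to be induced within minutes of a stimulus, were also higher at those labels. Of 24 tested, 23 rose and 0 fell at KO 6 h, with a median of 3.27, beside 19.7% of all genes higher, and 23 rose and 0 fell at NC 4 h, with a median of 2.83, beside 27.1% of all genes higher. FOS stood at 65.5 ± 0.272 CPM at KO 6 h, against 0.841 ± 0.430 CPM at 0 h, and at 527 ± 15.2 CPM at NC 4 h, against 6.80 ± 0.590 CPM at 0 h. DUSP1 reached 142 ± 2.67 CPM at KO 6 h, against 4.74 ± 2.00 CPM at 0 h, and CCN1 626 ± 15.6 CPM at NC 4 h, against 7.96 ± 0.909 CPM at 0 h. EGR2 had 0.231 ± 0.117 CPM at KO 6 h, against 0 at 0 h, and EGR3 had 0.276 ± 0.274 CPM at NC 4 h, against 0 at 0 h, both too low for a fold. At steady state 10 of 22 were higher in KO and 2 lower, beside 24.4% of all genes higher and 26.3% lower, led by GADD45B (1.02, SE 0.11), BTG2 (0.98, SE 0.17) and ATF3 (0.93, SE 0.11), and at 0 h of the actinomycin D set 7 of 24 were higher and 15 lower, beside 35.5% of all genes higher and 31.6% lower, NR4A1 among them at 0.916 ± 0.148 CPM in KO, against 24.2 ± 3.72 CPM in NC.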

How the data were processed

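RNA-seq of PANC-1 cells was read from the deposited tables. For the steady-state libraries the deposited files, per the file headers, give RSEM's expected counts, TPM and FPKM (FPKM not used). For the actinomycin D libraries the deposited files, per the file headers, give read counts, RPM, RPKM, 2 log2 columns (RPM and log2 not used) and a molecule signal, whose derivation no source used here gives. The submitters' processing notes list STAR, RSEM, Bowtie2, deepTools and hg19 with neither version nor role. No source read here states the strand setting of the counting. Expected counts were rounded (10.2% were not whole). Genes were tested with edgeR 4.0.16 (limma 3.58.1, DESeq2 1.42.0 as an alternative, R 4.3.3): filterByExpr, TMM, robust quasi-likelihood F test, Benjamini-Hochberg over all genes at 0.05, on 6 steady-state libraries and, with 1 mean per genotype and time, on 20 actinomycin D libraries. SE was taken as |log2 change|/√F. The molecule signal was tested with limma on log2 values with a pseudocount of 10000. The code was tested on simulated data. Same-numbered KO and NC replicates, at steady state or at the same labelled time, did not deviate together (r of -0.15 to 0.11). Same-numbered replicates of different labelled times were not compared. Numbers were not used as pairs. Replicates differed beyond counting noise (chi-square per degree of freedom 3.81 to 42.8 at steady state, 3.90 to 5.30 under actinomycin D). All 10 members are named, KHSRP and CDKN2A as label checks, any tested other KLF or SP gene, and up to 3 genes with the largest called change from each other list. The members and lists were chosen with earlier results of these data known. Alternatives were other scaling, no filter, DESeq2, a replicate block, length-adjusted offsets, each library left out, and no NC 4 h and KO 6 h libraries.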

Additional observations from a re-analysis of the deposited data

Results flagged for a closer look

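The profile over labelled times differed between KO and NC for each of the 10 members in edgeR's F test of genotype by time, with adjusted p of 1.33e-24 for KLF4, 3.02e-21 for KLF6, 4.55e-21 for KLF10, 5.66e-18 for KLF5, 4.83e-15 for KLF2, 1.04e-12 for KLF9, 1.18e-12 for KLF13, 7.52e-11 for KLF3, 1.29e-10 for KLF11 and 1.31e-07 for KLF7, where 55.3% of all genes passed.

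KLF2 and KLF4 moved in opposite directions in the 2 sets: at 0 h of the actinomycin D set their log2 changes, KO minus NC, were -2.73 and -1.75, while at steady state they were 0.50 and 0.28. The KO and NC libraries did not overlap for either gene at steady state, beside 60.0% of all genes. Over all 10 KO and 10 NC actinomycin D libraries they overlapped for both, beside 38.2% of all genes without overlap. The difference between the sets was not tested. Each of the 2 steady-state calls was lost when any of 4 libraries was left out. The NC libraries of the 2 sets also differed in CDKN2A, with 0 counts at steady state and 2728 to 5476 under actinomycin D.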

How the results depend on the processing

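Of the count of members called in each comparison, 106 values under another setting stayed within 1.5 times the main count and 9 moved, and with 1 library left out 314 stayed and 12 moved. Among single members under other settings, 1049 values kept their side of the threshold, 28 gained a call, 28 lost one and 15 changed sign with a call under at least 1 of the settings. Of the 1049, 34 changed sign with no call under either setting, 19 of them on the molecule signal, 8 scaled to ribosomal protein genes and 1 with length-adjusted offsets. At steady state 8 members passed with length-adjusted offsets, beside 52.3% of all genes. KLF2 was lost at steady state with DESeq2 (adjusted p = 0.0663) and with no filter (0.0637). Without the NC 4 h and KO 6 h libraries 5 members differed among times in NC and 4 in profile. The shares of all genes were 39.3% and 33.8%. On the molecule signal 4 members passed at KO 2 h, beside 59.0% of all genes, and 4 at KO 4 h, beside 40.1%. At KO 8 h 8 passed on that signal, beside 79.8%, and at NC 8 h 10 did, beside 67.8%. Scaled to ribosomal protein genes 8 passed at NC 2 h, beside 38.6% of all genes, and 2 at NC 8 h, beside 9.31%. Of members called under at least 1 of the settings, those reversed on the molecule signal were KLF13 (0.08) and KLF3 (0.67) at 0 h, KLF3 over the mean of times (0.22, and 0.22 scaled to ribosomal protein genes), KLF13 at KO 4 h (-0.03), KLF4 (-1.10), KLF5 (-0.03), KLF6 (-1.14), KLF9 (-1.05) and KLF11 (-1.41) at KO 8 h, KLF13 at NC 6 h (-0.28), and KLF3 (-0.94), KLF5 (-0.91), KLF6 (-0.91) and KLF11 (-0.81) at NC 8 h. With 1 library left out the counts ran from 1 to 5 at steady state, 1 to 3 at KO 2 h, 7 to 9 at KO 4 h, 3 to 4 at KO 8 h, 4 to 5 at NC 2 h, 0 to 1 at NC 6 h and at NC 8 h, and 8 to 9 over the mean of times, and stayed at 8 at 0 h and at 10 at KO 6 h and at NC 4 h. With a replicate block, 3 members passed at steady state and 8 at 0 h. KLF2 at KO 8 h (adjusted p = 0.0533) was the 1 member call the block changed. Replicate numbers did not pair KO with NC, and pairing across labelled times was not checked. Where the cause of a move is not in the setting itself, the cause was not tested. Low counts limit KLF2 at 0 h and 8 h.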
